A study of Mus musculus with 8 samples.

Results

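Sphingosine-1-phosphate (S1P) is a lipid signal that guides lymphocytes out of lymphoid organs, and 10 genes that make it, export it, break it down or sense it were examined out of 47493 genes measured. The genes were *Sphk1* and *Sphk2* (kinases), *Spns2* and *Mfsd2b* (exporters), *Sgpl1* and *Sgpp1* (breakdown enzymes), and *S1pr1*, *S1pr2*, *S1pr4* and *S1pr5* (receptors), each found once by its symbol. The set was chosen on the difference between fractions that is described below, because a kinase and both exporters stood among the genes with the largest excess in the flow-through, so the differences of the 10 genes between fractions are given as description, without a test.

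RNA was sequenced from 8 libraries of 4 female C57BL/6 mice that were 6 to 8 weeks old, with no engineered allele named in the labels. All 4 mice carried B16F10 melanoma (200000 cells, injected intradermally on day 0) and had received 300 mg/kg cyclophosphamide on day 3, 2000000 Thy1.1 Pmel-1 T cells on day 5, 10000 IU of IL-2 daily for 3 days, and 200 μg of the CD4-depleting antibody GK1.5 weekly from day 10. On day 25, endogenous (Thy1.1-negative) CD8+ T cells from lymph nodes and spleen of each mouse were passed over a column that held back cells bound by an IL-18Rα antibody. The retained cells are the 4 IL-18Rα-hi-enriched libraries and the cells that ran through are the 4 flow-through libraries. Both fractions thus share the tumor and every agent, and no library came from an untreated mouse. The labels number the libraries of each fraction 1 to 4, and equal numbers are read here as the same mouse. Because these are bulk samples, fewer cells of a type and less RNA per cell cannot be told apart.

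Inside cells, the kinases phosphorylate sphingosine to S1P, the phosphatase *Sgpp1* reverses that step and the lyase *Sgpl1* cleaves S1P for good. *Spns2*, best known from endothelium, supplies S1P to lymph, and *Mfsd2b* exports it from red blood cells and platelets into blood. Lymphocytes follow the gradient from tissue to blood and lymph through *S1pr1*, while *S1pr5* serves the exit of natural killer (NK) cells, *S1pr2* restrains migration and *S1pr4* is a receptor found largely on leukocytes.

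Levels are in FPKM, fragment numbers scaled to the length of the transcript and the depth of the library. The depth was estimated at 14400000 to 17500000 fragments per library, and 11706 to 12288 genes reached 1 FPKM. *Il18r1*, the gene of the selected receptor, averaged 30.6 ± 6.96 FPKM (SD, n = 4) in the flow-through and 111 ± 3.87 FPKM (n = 4) in the enriched libraries, a log2 difference of 1.85 with an SE of 0.15 (limma adjusted p = 0.00029). The labelled cell type was present: the summed FPKM of 8 CD8 T-cell markers, led by *Cd8a*, *Cd8b1* and *Cd3e*, was 1607 to 3020 in the flow-through and 3127 to 3344 in the enriched libraries, and 0 of the 8 passed the limma test (3 at an unadjusted p under 0.05, all higher in the enriched fraction). Yet 6 of the 8 were higher in each enriched library than in any flow-through library, beside 16.4% of all genes averaging at least 1 FPKM. Flow-through 1 stood apart with the lowest CD8 T-cell sum and the highest erythroid sum. Erythroid markers (23 of 24 measured, *Slc4a1* and *Klf1* among them) summed to between 1321 and 4684 FPKM in flow-through libraries and between 355 and 2226 FPKM in the enriched libraries, with the highest value of each fraction in mouse 1. The labels state that a red-cell lysis buffer was used. Of the 23 erythroid markers, 5 fell in the enriched fraction (*Gata1*, *Ermap*, *Epor*, *Tfr2* and *Car1*) and 0 rose by limma (0 at an unadjusted p under 0.05). Their log2 fold changes ran from -2.61 for *Car1* to -0.03 for *Hbb-bt*, with -1.85 for *Klf1* and -0.16 for *Slc4a1*. NK-cell markers (led by *Ncr1*, *Klrb1c* and *Klra8*) summed to between 102 and 279 FPKM in flow-through libraries and to between 299 and 619 FPKM in the enriched libraries, and 7 of 10 tested rose.

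Other cell types the fractions could hold were also read. Platelet markers (*Pf4*, *Ppbp*, *Itga2b* and others) summed to 27.1 to 33.1 FPKM in flow-through libraries and 17.8 to 25.6 FPKM in the enriched libraries, and 2 of 7 tested fell. Endothelial markers *Cdh5*, *Kdr* and *Tek* lay between 0.0777 and 0.805 FPKM in all 8 libraries, and *Egfl7* alone of the 9 endothelial and lymphatic genes was tested (log2 fold change -1.47, limma adjusted p = 0.022). Mast cell and basophil markers (*Fcer1a*, *Ms4a2*, *Cpa3* and others) summed to 147 to 330 FPKM in flow-through libraries and 283 to 645 FPKM in the enriched libraries. Of these, 2 of 9 rose and 3 fell. Myeloid markers summed to 391 to 1946 FPKM in flow-through libraries and 640 to 2738 FPKM in the enriched libraries, and 2 of 9 tested rose. Of naive T-cell markers 4 of 8 fell, and of B-cell markers 0 of 6 passed the limma test (0 at an unadjusted p under 0.05).

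**Figure D1:**
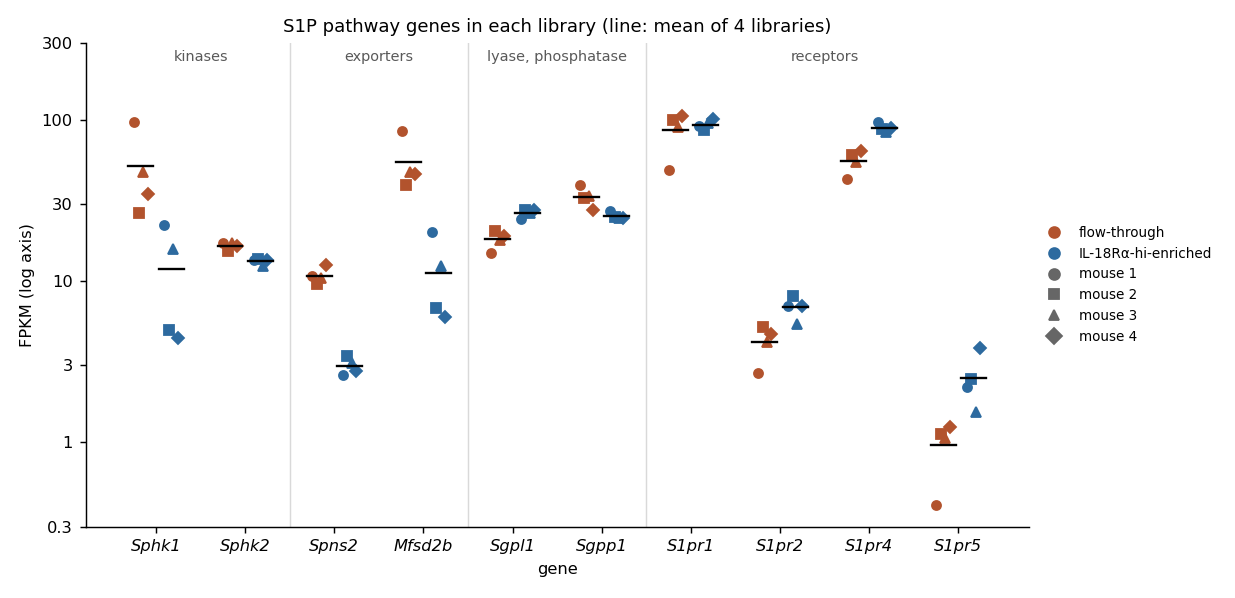
FPKM on a log axis of the 10 S1P genes in each of the 8 libraries, with flow-through in brown, enriched in blue, a marker shape for each mouse and a line at the mean of 4 libraries. *Sphk1*, *Spns2* and *Mfsd2b* sit lower in all enriched libraries than in any flow-through library, and the fractions overlap for *S1pr1*.

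Of the 10 genes, 4 (*Sgpl1*, *S1pr2*, *S1pr4* and *S1pr5*) were higher in each enriched library than in any flow-through library, 5 (*Sphk1*, *Sphk2*, *Spns2*, *Mfsd2b* and *Sgpp1*) were lower, and *S1pr1* overlapped. Among all 12166 genes whose mean reached 1 FPKM, 16.4% were without overlap and higher and 15.9% without overlap and lower, and since the genes were chosen from this contrast nothing is read from their share. When each library was scaled to its CD8 T-cell markers, which lowered the all-gene median of the log2 fold change from -0.018 to -0.358, only *S1pr5* of the 4 higher genes stayed without overlap, the 5 lower genes stayed so, and *S1pr1* changed sign. Ranked from the largest fall among the 12166 genes, *Mfsd2b* was in place 7, *Sphk1* in place 13 and *Spns2* in place 82.

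The upstream sequences of these 3 genes are shown because their transcripts differed most between the fractions. Each is the 250 bases before a RefSeq transcript start (GRCm38.p6), written 5′ to 3′ on the strand of the gene, and capitals mark AGATAA (a letter form bound by GATA factors) or CCACCC (a form bound by KLF factors) on either strand, so that a match on the opposite strand reads TTATCT or GGGTGG.
*Sphk1* (start 4 of 5, chr11:116532194-116532443, plus strand): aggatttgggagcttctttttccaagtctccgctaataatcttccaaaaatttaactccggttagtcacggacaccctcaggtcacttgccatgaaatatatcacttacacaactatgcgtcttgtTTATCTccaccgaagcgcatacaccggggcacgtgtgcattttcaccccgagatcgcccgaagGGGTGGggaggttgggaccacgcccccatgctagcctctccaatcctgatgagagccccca
*Mfsd2b* (chr12:4874360-4874609, minus strand): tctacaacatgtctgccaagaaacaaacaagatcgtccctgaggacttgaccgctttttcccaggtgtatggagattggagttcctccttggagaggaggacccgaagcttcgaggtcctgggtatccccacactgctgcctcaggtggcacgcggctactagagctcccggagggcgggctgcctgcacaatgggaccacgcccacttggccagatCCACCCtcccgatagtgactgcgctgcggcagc
*Spns2* (chr11:72475028-72475277, minus strand): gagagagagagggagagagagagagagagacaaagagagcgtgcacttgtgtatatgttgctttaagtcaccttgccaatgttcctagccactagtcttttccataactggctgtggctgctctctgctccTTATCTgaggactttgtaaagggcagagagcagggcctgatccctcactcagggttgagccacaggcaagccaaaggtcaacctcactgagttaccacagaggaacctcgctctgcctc

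In these sequences, AGATAA began 124 bases before the *Sphk1* start and 119 bases before the *Spns2* start, both on the opposite strand. RefSeq gives 5 starts for *Sphk1*, of which starts 4 and 5 hold the same AGATAA site and starts 1 to 3 hold no GATA form. Start 4 was picked from its letters, and gene-level FPKM does not tell which start is in use. CCACCC began 61 bases before that *Sphk1* start and 33 bases before the *Mfsd2b* start, and the 50 bases after the *Mfsd2b* start held another at position 43. RefSeq windows of 300 bases (250 before and 50 after the start) were found for 9 of the 10 genes, 14 windows in all, and no window was given for *S1pr1*. Counted by gene, since windows of neighboring *Sphk1* starts overlap and hold the same sites, 2 of the 9 held AGATAA or TGATAA in at least 1 window and 5 held CCACCC. Among 32851 windows of mouse genes (1 chromosome was left out), each counted singly, 11.2% held AGATAA, 9.05% TGATAA, 18.6% either of these and 31.5% CCACCC. A gene with several windows has more chances of a match, so the counts by gene are not compared with these shares. The matches are letters in a window and do not show binding.

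*Sphk1*, a cytosolic kinase that acts at the plasma membrane, was the member with the widest spread between mice. It is a protein-coding gene on chromosome 11 (116530925 to 116536674, mm10, plus strand). Its level was 97.0, 26.3, 47.4 and 34.6 FPKM in flow-through libraries 1 to 4 and 22.4, 4.94, 15.9 and 4.43 FPKM in enriched libraries 1 to 4. The lowest flow-through library lay above the highest enriched library, but within each fraction mouse 1 was highest and mouse 3 next. The means were 51.3 ± 31.7 FPKM (SD, n = 4) and 11.9 ± 8.75 FPKM (n = 4), a ratio of 4.31 in favor of the flow-through, and the log2 fold change was -2.12 (SE 0.56). Within single mice the flow-through exceeded the enriched library 4.34-, 5.33-, 2.98- and 7.80-fold in mice 1 to 4. Without flow-through 1 the log2 fold change was -1.76.

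*Sphk2*, the kinase found largely in the nucleus and other organelles, varied little. It lies on chromosome 7 (45709467 to 45718002, minus strand). Flow-through libraries 1 to 4 held 17.1, 15.4, 17.3 and 16.6 FPKM and enriched libraries 13.5, 13.6, 12.4 and 13.5 FPKM, so that the fractions did not overlap. The ratio of the means was 1.25 and the log2 fold change -0.30 (SE 0.071). Of 4159 exon bases of *Sphk2*, 373 are shared on the opposite strand with the ribosomal protein gene *Rpl18*, which stood at 2254 to 2504 FPKM in flow-through libraries and at 1754 to 1977 FPKM in the enriched libraries, a ratio of 1.32. Another 539 are shared with *Dbp* (3.59 against 2.25 FPKM on average). Values were made without regard to strand as far as the methods say, so the reads of *Sphk2* and of these neighbors cannot be told apart over the shared bases.

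The balance of the kinases differed between the fractions. *Sphk1* supplied 63.1 to 85.0% of the FPKM of both kinases in the flow-through and 24.7 to 62.3% in the enriched libraries, with no overlap. In FPKM, *Sphk1* exceeded *Sphk2* in each flow-through library and in enriched libraries 1 and 3, and lay below it in enriched 2 and 4 (ratios 0.363 and 0.328).

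*Mfsd2b*, the exporter of blood cells, followed *Sphk1* from library to library. It lies on chromosome 12 (4862440 to 4874359, minus strand) and shares no exon with another gene. The level was 85.0, 39.4, 47.5 and 46.0 FPKM in flow-through libraries 1 to 4 and 20, 6.79, 12.4 and 5.95 FPKM in enriched libraries 1 to 4. As with *Sphk1*, mouse 1 was highest in both fractions and the fractions did not overlap. The means were 54.5 ± 20.7 FPKM (SD, n = 4) and 11.3 ± 6.49 FPKM (n = 4), a ratio of 4.82, and the log2 fold change was -2.25 (SE 0.37), or -2.02 without flow-through 1. Within mice the flow-through was 3.83- to 7.73-fold higher.

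*Spns2*, the exporter that supplies lymph, was lower in level and nearly constant within each fraction. It lies on chromosome 11 (72451638 to 72489904, minus strand), and the RefSeq start whose sequence is printed above falls inside that span. The level was 10.7, 9.60, 10.4 and 12.5 FPKM in flow-through libraries 1 to 4 and 2.61, 3.43, 3.09 and 2.76 FPKM in enriched libraries 1 to 4. The lowest flow-through library was well above the highest enriched one, and mouse 1 was not the highest in either fraction. The means were 10.8 ± 1.22 and 2.97 ± 0.366 FPKM (SD, n = 4 each), a ratio of 3.63, with a log2 fold change of -1.57 (SE 0.11) that lay between -1.62 and -1.50 when any library was left out. Of its 4083 exon bases, 131 are shared on the opposite strand with *Mybbp1a*, a Myb-binding nucleolar protein gene at 82.1 to 129.7 FPKM in flow-through libraries and 55.1 to 61.5 FPKM in the enriched libraries. The part of *Mybbp1a* reads in the *Spns2* value was not tested.

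**Figure D2:**
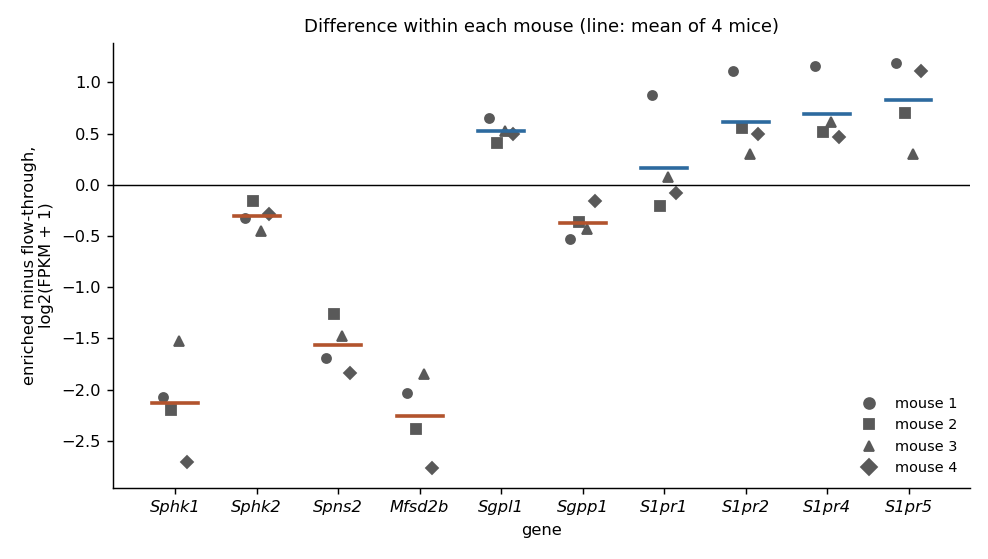
Difference between the enriched and the flow-through library of each mouse on the log2(FPKM + 1) scale for the 10 genes, with a marker shape per mouse and a line at the mean of 4 mice (brown below 0, blue above 0). *Sphk1*, *Spns2* and *Mfsd2b* were lower in the enriched library by at least 1.26 in each mouse, while *S1pr1* lay on both sides of 0 and its mean changed sign when libraries were scaled to CD8 T-cell markers.

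The within-fraction spread separated the 3 flow-through genes. Over the 8 libraries, after the mean of the fraction had been taken from the log2 values, *Sphk1* and *Mfsd2b* had r = 0.98, while *Spns2* had r = -0.21 with *Sphk1* and -0.24 with *Mfsd2b*. These r values describe 8 libraries from 4 mice and carry no p. With the summed erythroid markers without globins, r of the same deviations was 0.99 for *Sphk1*, 0.98 for *Mfsd2b* and -0.27 for *Spns2*. Per 1000 FPKM of those erythroid markers, *Sphk1* stood at 26.6, 23.5, 24.8 and 24.3 FPKM in flow-through libraries 1 to 4 and at 20.5, 20.7, 23.9 and 18 FPKM in enriched libraries 1 to 4. On this scale the fractions of *Sphk1* overlapped, and averaged 24.8 ± 1.33 and 20.8 ± 2.42 FPKM per 1000 (SD, n = 4 each). *Mfsd2b* stood at 23.3 to 35.2 FPKM per 1000 in the flow-through and 18.3 to 28.4 FPKM per 1000 in the enriched libraries, also overlapping, and *Spns2* at 2.93 to 8.76 and 2.38 to 14.4 FPKM per 1000. Platelet markers had r = -0.69 with *Sphk1*, -0.66 with *Mfsd2b* and 0.63 with *Spns2* over the deviations. The erythroid list was not alone in a strong r with *Sphk1* and *Mfsd2b*. In that order, r was -0.95 and -0.9 with NK-cell markers and -0.9 and -0.84 with myeloid markers. It was -0.89 and -0.81 with mast cell and basophil markers, and 0.94 and 0.89 with endothelial and lymphatic markers. The part of erythroid, platelet or other cell RNA in the S1P genes was not tested.

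**Figure D3:**
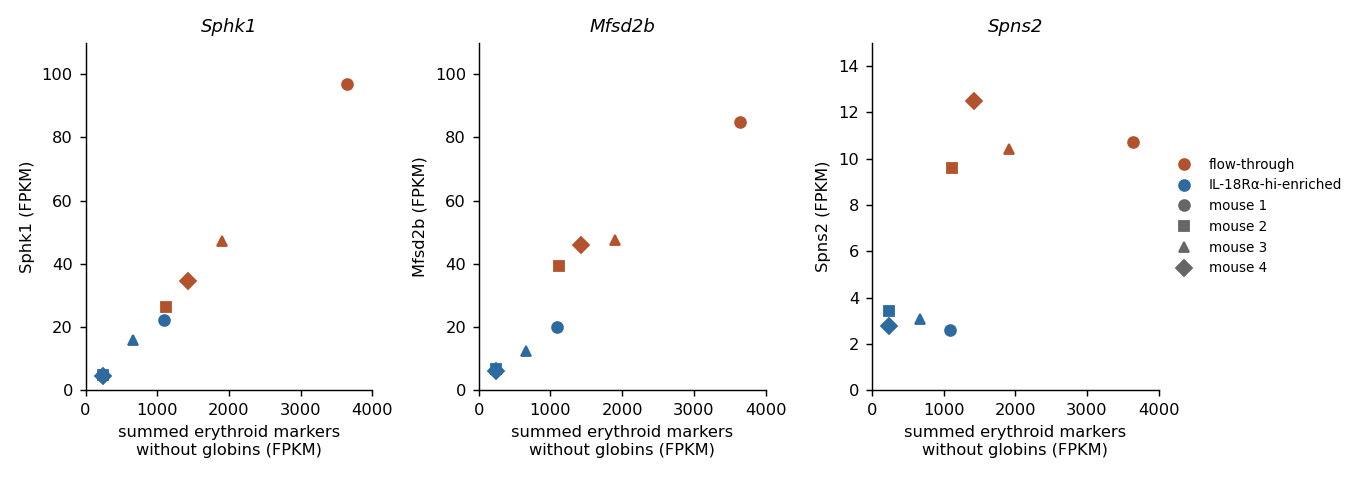
FPKM of *Sphk1*, *Mfsd2b* and *Spns2* in each library against the summed FPKM of erythroid markers without globins, with fractions by color and mice by shape. *Sphk1* and *Mfsd2b* climb along with the erythroid sum in both fractions (239 to 3643 FPKM), while *Spns2* forms 2 flat bands at 2.61 to 3.43 FPKM and 9.60 to 12.5 FPKM.

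Genes with the most similar patterns were then listed for the 3 flow-through genes. An r over the 8 libraries includes the difference between fractions by which the S1P genes were chosen, so a high r in part restates it. By r over the 8 libraries on the log2 scale, among 10718 genes, the 5 nearest to *Sphk1* were *Abcb4*, *Gata1*, *Sh3tc2*, *Samd14* and *Gfi1b* (r = 0.999 to 0.997), of which *Gata1* and *Gfi1b* encode transcription factors of erythroid and megakaryocyte cells. By deviations within fractions the 5 nearest were *Abcb4*, *Aqp1*, *Gata1*, *Tfr2* and *Prkar2b* (r = 0.999 to 0.996). The 5 nearest to *Mfsd2b* were *Car1*, *Dcaf4*, *Gsta4*, *Clca3a1* and *Nme4* (r = 0.996 to 0.992), led by the red-cell carbonic anhydrase *Car1*, and by deviations *Gstm5*, *Tmem120b*, *Ssbp2*, *Pcmt1* and *Aqp1* (r = 0.987 to 0.983). For *Spns2* they were *Letmd1*, *Pde4d*, *Myc*, *Rxrb* and *Epb41l4aos* (r = 0.996 to 0.993), which hold the proliferation factor *Myc* and the cAMP phosphodiesterase *Pde4d*. By deviations they were *Zfp574*, *Zmym4*, *Slc38a10*, *Rpp40* and *Rxrb* (r = 0.972 to 0.942), so that *Rxrb* alone was in both lists.

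Of the breakdown enzymes, the lyase was higher and the phosphatase lower in the enriched libraries. *Sgpl1*, which cleaves S1P irreversibly (chromosome 10, 61098642 to 61147703, minus strand), stood at 15, 20.4, 18 and 19 FPKM in flow-through libraries 1 to 4 and at 24.1, 27.5, 26.4 and 27.4 FPKM in enriched libraries 1 to 4. Mouse 1 was lowest in both fractions, and the fractions did not overlap. The means were 18.1 ± 2.30 and 26.4 ± 1.57 FPKM (SD, n = 4 each), a ratio of 1.46, with a log2 fold change of 0.52 (SE 0.10) that was 0.16 after scaling to CD8 T-cell markers.

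*Sgpp1*, which returns S1P to sphingosine (chromosome 12, 75714249 to 75735729, minus strand), showed the opposite order. It stood at 39.5, 32.6, 33.5 and 27.5 FPKM in flow-through libraries 1 to 4 and at 27.0, 25.1, 24.6 and 24.5 FPKM in enriched libraries 1 to 4. The gap between the fractions was narrow, from 27.0 to 27.5 FPKM, and closed when libraries were scaled by median ratios. The means were 33.3 ± 4.92 and 25.3 ± 1.16 FPKM (SD, n = 4 each), with a log2 fold change of -0.37 (SE 0.11), or -0.74 after T-cell scaling. The ratio of *Sgpp1* to *Sgpl1* within a library, which no scaling of whole libraries alters, was 1.45 to 2.64 in the flow-through and 0.894 to 1.12 in the enriched libraries, without overlap. Deviations within fractions ran against each other, with r = -0.76 for *Sgpl1* with *Sgpp1* (8 libraries, 4 mice).

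*S1pr1*, the receptor for lymphocyte exit, was the most abundant of the 10 transcripts in both fractions by mean FPKM and overlapped between them. It lies on chromosome 3 (115710433 to 115715072, minus strand). Its level was 49.1, 100.1, 89.8 and 106 FPKM in flow-through libraries 1 to 4 and 91.2, 86.3, 94.8 and 100.5 FPKM in enriched libraries 1 to 4. Flow-through 1 was low, while the other 7 libraries lay between 86.3 and 106 FPKM. The means were 86.2 ± 25.7 and 93.2 ± 6.00 FPKM (SD, n = 4 each), with a log2 fold change of 0.17 (SE 0.22) that turned to -0.08 without flow-through 1 and to -0.21 after T-cell scaling.

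*S1pr4*, the leukocyte receptor (chromosome 10, 81497747 to 81500132, minus strand), was higher in the enriched libraries. The values were 42.6, 60.6, 54.8 and 63.9 FPKM in flow-through libraries 1 to 4 and 96.5, 87.3, 84.0 and 88.8 FPKM in enriched libraries 1 to 4. Flow-through 1 was again lowest, but the other flow-through libraries also lay below each enriched library. The means were 55.5 ± 9.37 and 89.2 ± 5.29 FPKM (SD, n = 4 each), a ratio of 1.61, and the log2 fold change was 0.69 (SE 0.13), or 0.32 after T-cell scaling. Per 1000 FPKM of CD8 T-cell markers *S1pr4* stood at 20.6 to 26.5 FPKM in flow-through libraries and 26.3 to 28.9 FPKM in the enriched libraries, with an overlap due to flow-through 1, and *S1pr1* at 30.5 to 35.1 and 27.3 to 32 FPKM.

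**Figure D4:**
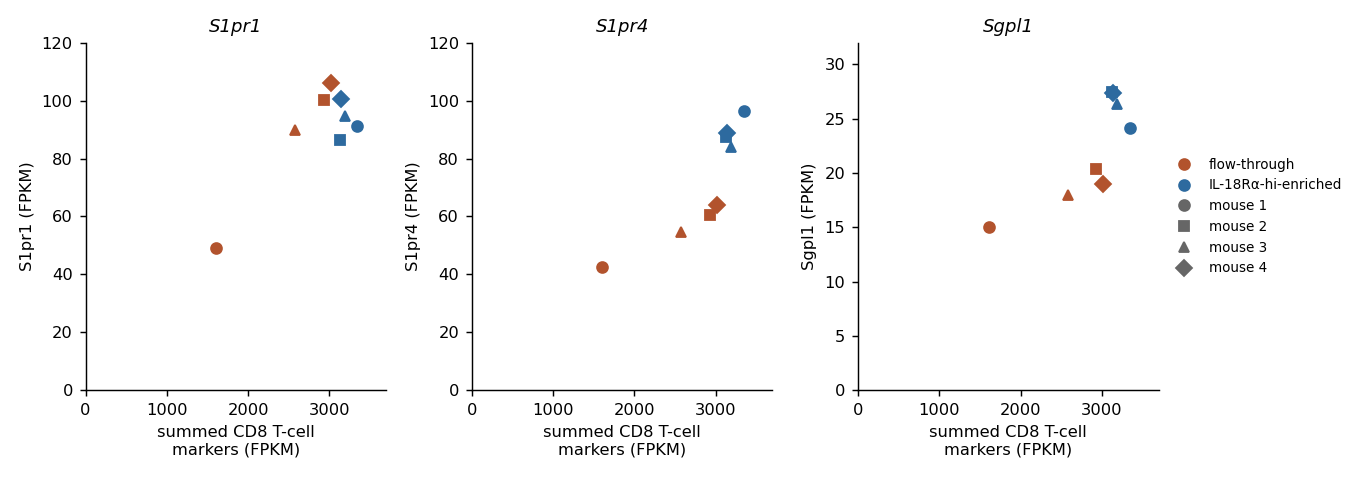
FPKM of *S1pr1*, *S1pr4* and *Sgpl1* in each library against the summed FPKM of 8 CD8 T-cell markers, with fractions by color and mice by shape. Flow-through 1 lies at the lowest T-cell sum (1607 FPKM) and at the lowest level of all 3 genes, and the enriched libraries gather at 3127 to 3344 FPKM.

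*S1pr2*, the receptor that restrains migration (chromosome 9, 20962361 to 20976781, minus strand), was of low level. It stood at 2.71, 5.21, 4.18 and 4.67 FPKM in flow-through libraries 1 to 4 and at 7.02, 8.08, 5.39 and 7.0 FPKM in enriched libraries 1 to 4. The fractions did not overlap, but flow-through 2 and enriched 3 were close. The ratio of the means was 1.64 and the log2 fold change 0.61 (SE 0.18).

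*S1pr5*, the receptor for NK-cell exit (chromosome 9, 21242912 to 21248443, minus strand), was the least abundant of the 10. It stood at 0.408, 1.13, 1.07 and 1.24 FPKM in flow-through libraries 1 to 4 and at 2.21, 2.46, 1.54 and 3.85 FPKM in enriched libraries 1 to 4. The means were 0.960 ± 0.376 and 2.51 ± 0.969 FPKM (SD, n = 4 each), a ratio of 2.62, with a log2 fold change of 0.83 (SE 0.23) that the added 1 FPKM holds down (1.32 with 0.1 FPKM added). Its flow-through mean was below 1 FPKM, so it passed the filter on low values through the enriched libraries, and the lowest library held only about 20 fragments. Over the deviations in 8 libraries its r with the summed NK-cell markers was 0.77, beside 0.93 for *Sgpl1*, 0.79 for *S1pr2*, 0.72 for *S1pr1* and 0.61 for *S1pr4*, and its r with naive T-cell markers was 0.75. With the summed myeloid markers r was 0.55 for *S1pr5*, 0.88 for *Sgpl1*, 0.80 for *S1pr2*, 0.55 for *S1pr1* and 0.49 for *S1pr4*. The part of NK or myeloid cells in these levels was not tested.

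The makeup of the receptor pool differed between the fractions. *S1pr1* made up 51.8 to 60.3% of the FPKM of the 4 receptors in the flow-through and 46.3 to 51.0% in the enriched libraries, without overlap. *S1pr4* made up 36.3 to 44.9% and 44.4 to 49.0%, with an overlap due to flow-through 1. The ratio of *S1pr1* to *S1pr4* within a library was 1.15, 1.65, 1.64 and 1.66 in flow-through libraries 1 to 4 and 0.945, 0.988, 1.13 and 1.13 in enriched libraries 1 to 4. These ratios did not overlap, although flow-through 1 came close to enriched 3 and 4. The related *S1pr3*, read outside the 10, lay at 0.211 to 0.832 FPKM in all libraries and was not tested.

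**Figure D5:**
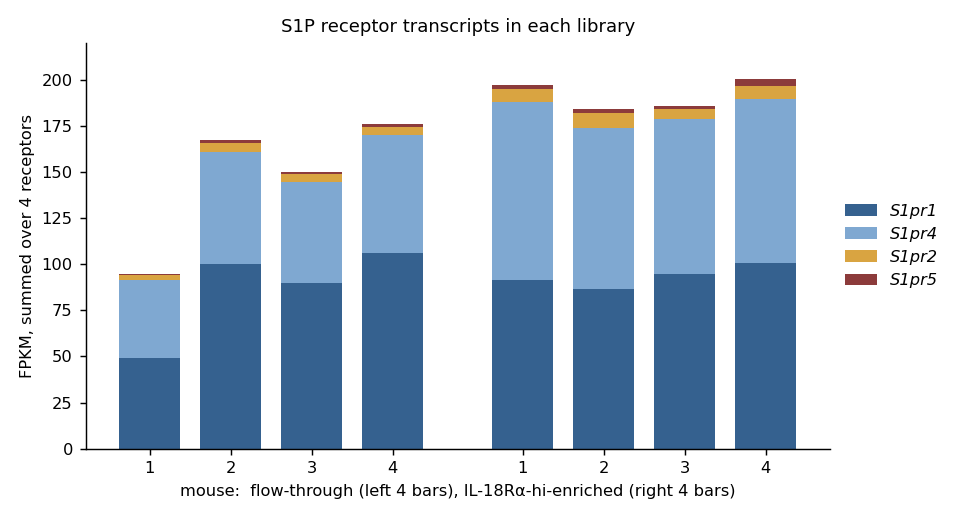
Stacked FPKM of the 4 S1P receptors in each library, with the 4 flow-through libraries on the left and the 4 enriched libraries on the right. The sum was 94.8 to 176 FPKM in flow-through libraries and 184 to 200.2 FPKM in the enriched libraries, and *S1pr4* formed the larger part of the difference by mean FPKM.

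With the deviations of both fractions pooled, *S1pr1* and *S1pr4* had r = 0.91. With the summed CD8 T-cell markers *S1pr1* had r = 0.98 and *S1pr4* 0.96, over 8 libraries from 4 mice. These r values lean on flow-through 1, which was far below the other libraries in *S1pr1* (49.1 FPKM) and in the CD8 T-cell sum (1607 FPKM). It was also lowest in *S1pr4* (42.6 FPKM). Among the enriched libraries *S1pr1* was highest in enriched 4, while *S1pr4* and the CD8 T-cell sum were highest in enriched 1. The 5 genes nearest to *S1pr4* by r over 8 libraries were *Sit1*, *Panx1*, *Dgkz*, *Lsp1* and *Cnrip1* (r = 0.998 to 0.996), which include the lymphocyte adaptor *Sit1* and the diacylglycerol kinase *Dgkz*. By deviations they were *Ptprcap*, *Sit1*, *Lsp1*, *Cnrip1* and *Thy1* (r = 0.994 to 0.990). For *S1pr1* they were *Zfp273*, *Limd2*, *Sgk1*, *Maml2* and *Ss18* (r = 0.991 to 0.985), and by deviations *Epsti1*, *Aim1*, *Pym1*, *Maml2* and *Tbc1d10c* (r = 0.996 to 0.994). For the less abundant *S1pr5* they were *Tmem106a*, *Chmp5*, *Cacnb1*, *Ctla2b* and *Impact* (r = 0.988 to 0.968), and by deviations *Pddc1*, *Tmem106a*, *Klra3*, *Plp2* and *Pias3* (r = 0.969 to 0.961).

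Ordered by mean FPKM, the flow-through ran *S1pr1*, *S1pr4*, *Mfsd2b*, *Sphk1*, *Sgpp1*, *Sgpl1*, *Sphk2*, *Spns2*, *S1pr2* and *S1pr5*. The first 5 overlapped each with its neighbor, from 86.2 FPKM for *S1pr1* down to 33.3 FPKM for *Sgpp1*, and *Sgpl1* overlapped *Sphk2*. In the enriched libraries the order was *S1pr1*, *S1pr4*, *Sgpl1*, *Sgpp1*, *Sphk2*, *Sphk1*, *Mfsd2b*, *S1pr2*, *Spns2* and *S1pr5*. There *S1pr1* and *S1pr4* overlapped each other and lay above the rest, *Sgpl1* overlapped *Sgpp1*, *Sphk2* through *S1pr2* overlapped each with its neighbor, and so did *Spns2* and *S1pr5*. *Mfsd2b* and *Sphk1* thus stood in places 3 and 4 in the flow-through and 7 and 6 in the enriched libraries.

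Genes around the S1P pathway were tested with limma over all 12166 genes, in which 14.1% were called higher and 13.7% lower in the enriched fraction. Of 71 genes in 5 lists (ceramide synthesis, ceramide and sphingosine turnover, other S1P breakdown and carriers, receptor coupling, and regulators of S1P receptors), 58 were tested, 17 rose and 3 fell, with a median log2 fold change of 0.21 beside an all-gene median of -0.018. When the mouse was a block, 27 rose and 8 fell, and after T-cell scaling 3 rose and 4 fell. The count of 17 was 10 without flow-through 3, 10 without enriched 2 and 9 without enriched 4, and the count of 3 became 6 without flow-through 1 and 1 without flow-through 3 or without enriched 1, 2 or 3. Of the 20 calls, 10 were lost without at least 1 library, and *Ugcg*, *Tbx21*, *Zfp683* and *Prdm1* were kept in each of 14 alternatives.

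In ceramide synthesis, which supplies the backbone of sphingosine, 5 of 13 tested genes rose and 1 fell (2 fell with the mouse as a block). The ceramide synthase *Cers5* averaged 27.2 ± 6.95 FPKM in flow-through libraries and 45.1 ± 1.67 FPKM in the enriched libraries (log2 fold change 0.75, limma adjusted p = 0.016). *Cers4* (0.62, limma adjusted p = 0.017), the desaturase *Degs1* (0.58, limma adjusted p = 0.0056) and the palmitoyltransferase subunit *Sptlc2* (0.56, limma adjusted p = 0.022) also rose, as did the regulator *Ormdl1* (0.33, limma adjusted p = 0.013), named after its value was seen. *Cers2*, which makes very-long-chain ceramides, fell by 0.30 (limma adjusted p = 0.035). After T-cell scaling none of these 6 passed, and *Ormdl1* changed sign. Without enriched 2 or enriched 4 the calls for *Sptlc2*, *Cers4* and *Cers2* were lost, that for *Sptlc2* also without flow-through 3, and that for *Cers2* also without flow-through 3, enriched 1 or enriched 3 and after median-ratio scaling.

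In ceramide and sphingosine turnover, 1 of 14 tested genes rose and 1 fell, and 4 rose and 3 fell with the mouse as a block. *Asah1*, the acid ceramidase that releases the sphingosine used by the kinases, averaged 15.6 ± 4.21 and 24.5 ± 4.5 FPKM (log2 fold change 0.64, limma adjusted p = 0.044), with overlap between the fractions and a call that was lost without any of flow-through 1, 3 or 4 or enriched 2, 3 or 4. *Ugcg*, which turns ceramide to glucosylceramide, averaged 68.6 ± 4.27 and 40.9 ± 3.56 FPKM and fell by 0.74 (limma adjusted p = 0.0012). Among other breakdown and carrier genes 1 of 3 tested rose: *Aldh3a2*, which oxidizes the aldehyde left by the lyase *Sgpl1*, with a log2 fold change of 0.61 (limma adjusted p = 0.018, lost without flow-through 3, enriched 2 or enriched 4).

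In receptor coupling, 7 of 18 tested genes rose and 1 fell, and 12 rose and 2 fell with the mouse as a block. *Gnai2*, the inhibitory G protein alpha subunit through which *S1pr1* signals, averaged 304 ± 30.9 and 453 ± 9.67 FPKM (log2 fold change 0.58, limma adjusted p = 0.0026). *Gna13*, which couples *S1pr2*, rose by 0.54 on the log2 scale (limma adjusted p = 0.0042) while its relative *Gna12* fell by 0.66 (limma adjusted p = 0.031). *Rac2* (0.60, limma adjusted p = 0.024) and *Adrbk1* (0.44, limma adjusted p = 0.032), a kinase that acts on ligand-bound receptors, also rose. The calls for *Gna12*, *Rac2* and *Adrbk1* were lost without flow-through 3 or any enriched library, and after T-cell scaling none of the 8 passed and *Gnai3*, *Rac1* and *Rhoa* changed sign.

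Among 10 regulators of S1P receptors in lymphocytes 3 rose and 0 fell by limma (0 fell at an unadjusted p under 0.05), while 4 rose and 1 (*Cd69*) fell with the mouse as a block, and *Cd69* and *Tcf7* (named after their values were seen) fell after T-cell scaling and without flow-through 1. *Tbx21*, a T-box factor known to act on *S1pr5*, averaged 16 ± 3.74 and 53.2 ± 5.46 FPKM (log2 fold change 1.69, limma adjusted p = 0.00065). *Zfp683* (1.26, limma adjusted p = 0.0019) and *Prdm1* (1.18, limma adjusted p = 0.0032), factors of tissue-resident lymphocytes known to repress *S1pr1*, rose as well, while *S1pr1* itself overlapped. *Klf2*, which drives *S1pr1*, averaged 162 ± 57.6 and 179 ± 21.8 FPKM (log2 fold change 0.21, limma adjusted p = 0.55), and *Cd69*, which removes the *S1pr1* protein from the surface, 58.6 ± 21.8 and 41.6 ± 9.75 FPKM (-0.43, limma adjusted p = 0.30, without the block).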

How the data were processed

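Endogenous CD8+ T cells of 4 mice gave an IL-18Rα-hi-enriched and a flow-through library each. The authors mapped filtered reads of stranded poly(A) libraries to mm10 with TopHat and deposited FPKM values from Cufflinks 2.1.1, corrected for multiply mapped reads and fragment bias. Use of strand and the annotation release are not given in the sources used here, and other options are described as defaults, which ignore strand. FPKM values are estimates, so the depth was inferred from their low-level steps and no counting interval was set.

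From these values, log2(FPKM + 1) was fitted with limma 3.58.1 (R 4.3.3, variance trend, no block) over the 12166 genes whose mean reached 1 FPKM, with Benjamini-Hochberg adjustment at 0.05. A log2 fold change is on this scale, enriched minus flow-through, and understates low genes. Its SE is from this fit without a block and so includes the spread between mice. With the mouse as a block the SE was 0.175 for *Sphk1*, 0.147 for *Mfsd2b* and 0.115 for *Spns2*. The fit was tested on simulated data. Groups and numbers came from the labels, and equal numbers in the 2 fractions were read as the same mouse. Deviations of same-numbered libraries correlated (r = 0.66, 0.589, 0.308 and 0.471). For libraries of different numbers r ran from -0.6 (flow-through 2 with enriched 1) to 0.412 (flow-through 2 with enriched 4).

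Alternatives were 0.1 FPKM added, all genes above 0 or only those averaging 5 FPKM or more, median-ratio scaling, scaling to 8 CD8 T-cell markers, the mouse as a block, and leaving out each library. Named were the 10 members, up to 4 genes in each direction per pathway list, the first 3 of each marker list (1 of these genes is not reported here), *Il18r1*, and the 5 genes most like a member. Predicted genes and antigen receptor segments were left out of that search. Members and lists were chosen with earlier results of these data known. Positions are from GENCODE M21 (mm10), in which 98.9% of gene identifiers were found. Upstream sequences are from RefSeq (GRCm38.p6).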

Additional observations from a re-analysis of the deposited data

Results flagged for a closer look

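Enriched 3 held 12.4 FPKM of *Sphk2*, below the other 3 enriched libraries at 13.5 to 13.6 FPKM, a gap large for the range of 4 libraries by Dixon's 95% criterion. It was the only 1 of 20 groups of 4 libraries, 10 genes in 2 fractions, to pass, and chance passes about 1 in 20.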

How the results depend on the processing

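FPKM values carry no counts, so the precision of a low gene such as *S1pr5* cannot be set by counting, and reads over exons shared with a gene on the opposite strand (*Sphk1*, *Sphk2*, *Spns2* and *S1pr5*) cannot be assigned. With 4 libraries per fraction, single libraries decide many calls, and the 10 genes have no test because the contrast chose them. Of 139 recomputed log2 fold changes of the 10 genes, 9 moved by more than 1 SD between libraries. These were *Spns2* and *S1pr5* with 0.1 FPKM added, and otherwise values after T-cell scaling. The number that stayed does not measure stability, because the gene filters and the block leave these values as they are. Leaving out 1 of 4 libraries cannot move them by 1 SD either. None of the genes without overlap changed sign. *Sphk1* ranged from -2.50 to -1.76, *Mfsd2b* from -2.56 to -2.02 and *Spns2* from -1.62 to -1.50 when a library was left out. *Spns2* was -1.83 with 0.1 FPKM added and -1.88 after T-cell scaling, while *Sphk1* was -2.48 and *Mfsd2b* -2.61 after T-cell scaling.

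Over all genes, 1720 were called higher and 1664 lower in the enriched fraction (50.8% of calls higher). T-cell scaling gave 518 higher and 1305 lower (28.4% higher), and that scaling left 1 gene of the 10 higher without overlap instead of 4, and 3 instead of 17 higher genes in the 5 pathway lists. Leaving out a library gave 1107 to 1813 higher and 939 to 1780 lower genes, and in the pathway lists 9 to 19 higher and 1 to 6 lower genes, with fewer libraries in the fit. With the mouse as a replicate block, 2705 genes were higher and 2763 lower, of which 1719 and 1659 were the same genes as without it, and the pathway lists had 27 higher and 8 lower genes. The block ended no call in these lists. The cause of the other changes was not tested.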
